A study of Mus musculus with 2 samples.

Results

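The surface markers that distinguish naive CD8+ T cells from activated and memory ones were followed in naive CD8+ T cells with a deletion of Bcl11b, which encodes a DNA-binding zinc-finger protein needed for T cell development. The set was a list of 10 genes, Cd44, Cd69, Ly6a, Ly6c1, Cd38, Spn, Ctla4, Icos, Pdcd1 and Lag3. Their spots were taken from the scanner files by the gene name of the array design, which found 24 of 43379 gene spots, for 15 probes of 9 genes. Ly6c1 has no spot under that name, and the 2 probes that the files call Ly6c were added for it, which gives 17 probes of 10 genes among 41174 probes in all.

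The knockout samples came from mice with floxed Bcl11b alleles and an iCre recombinase under the distal Lck promoter (Bcl11bF/F/dLck-iCre). That promoter works in maturing T cells of more than the CD8 lineage, so the mice lack the gene in other T cells too. The other samples came from wild-type mice. The background strain was C57BL/6 for both, no age is given, and the wild-type mice are not said to carry the Cre. From either genotype CD8+ T cells low in CD44 and CD25 were sorted to a stated purity above 90%, and their RNA was hybridised on 2 Agilent arrays that read both genotypes at once, the knockout through the dye Cy5 and wild type through Cy3. They are described as biological replicates, with no number of mice. Neither array swapped the dyes, so a dye effect of a gene and an effect of the knockout cannot be told apart.

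Naive CD8+ T cells leave the thymus with little CD44 on their surface and gain it, together with Ly-6A and Ly-6C, when they become memory cells. CD69 appears within hours of stimulation, whereas ICOS, CTLA-4, PD-1 and LAG-3 appear as activation goes on, ICOS as a costimulator and the others as brakes. Because the cells were gated on low CD44, the Cd44 transcript was measured in cells already chosen for little of its protein.

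The scanner software's own test put 17276 and 10955 gene spots well above background for the knockout on arrays 1 and 2, against 10739 and 13446 for wild type. By its brighter probe Bcl11b itself had log2 ratios of knockout over wild type of -1.45 and -1.73, without passing the test (adjusted p = 0.0750, limma). Its second probe, also well above background in all channels, was at -0.35 and -2.32, so the loss on array 1 depended on the probe. All 8 markers of CD8 T cells, among them Cd3e, Cd247 and Cd8b1, were well above background in each genotype on each array. The Y-linked genes Ddx3y and Eif2s3y were well above background on array 1 in the knockout alone and on array 2 in wild type alone, and the part of sex in the marker values was not tested. Across genes the log2 ratios had an SD of 1.01 on array 1 and 0.41 on array 2. The number of arrays limits the precision of every value below.

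None of the marker genes passed the test over all genes, and their mean log2 ratios ran between -1.06 (Ly6c1) and 1.29 (Pdcd1). Of the 10 genes, 7 were bright enough to be tested (Cd44, Cd69, Ly6a, Ly6c1, Spn, Icos and Pdcd1), and 0 of 7 passed an adjusted p of 0.05 (limma), where 1.49% of the 9273 genes tested did, 1.24% higher and 0.248% lower in the knockout. At an unadjusted p under 0.05 (limma) there were 3, Icos, Pdcd1 and Ly6c1, where 9.75% of all genes had one. Icos, Pdcd1, Cd44 and Spn were above 0 on both arrays (4 of 7; 30.9% of all genes), and Ly6a and Ly6c1 were below 0 on both (2 of 7; 30.8% of all genes), although centring on the median in place of loess put the means of Ly6a and Ly6c1 above 0. Cd69 had opposite signs on the arrays, as had 38.2% of all genes. The median log2 ratio was 0.69 over the 7 genes and 0.04 over all genes. Pdcd1 and Cd44 were kept for the test through the knockout channel alone, which favoured ratios above 0, and these counts and the median include them. With both channels required above background, 5 of the 7 genes were left and none passed. Every gene shared a standard error of 0.50 on the log2 scale. The smallest mean ratio that passed was 1.68 in size, a 3.20-fold difference, so smaller differences could not be called with this processing.

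**Figure D1:**
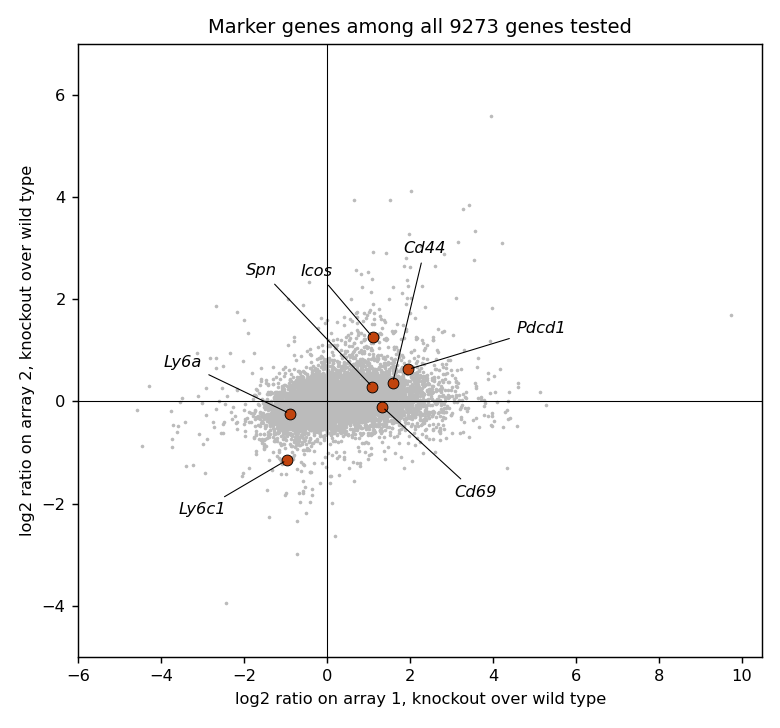
Log2 ratio of knockout over wild type on array 1 (x axis) and array 2 (y axis) for the 9273 genes tested (grey), with the 7 marker genes in orange. Icos lies above 1 on both axes, Ly6c1 near -1 on both (with a mean above 0 under median centring), and Cd44, Pdcd1, Spn and Cd69 lie further right than up.

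Levels are given below as normalised channel intensities, that is, the Cy5 value for the knockout and the Cy3 value for wild type after normalisation within and between arrays, in arbitrary units that hold for 1 probe only. By the brightest probe of each gene, the levels of Cd44, Cd69, Ly6a and Pdcd1 overlapped between the genotypes, as did those of 58% of all genes. In RNA from bulk sorted cells, more cells of one kind and more RNA per cell cannot be told apart. Where both arrays lacked a wild-type value well above background, a fold is given as at least its size. Such a bound sets the mean of the knockout channel against, on each array, the wild-type channel's own value or the lowest level that counted as well above background, whichever is higher, and it is open to dye bias.

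**Figure D2:**
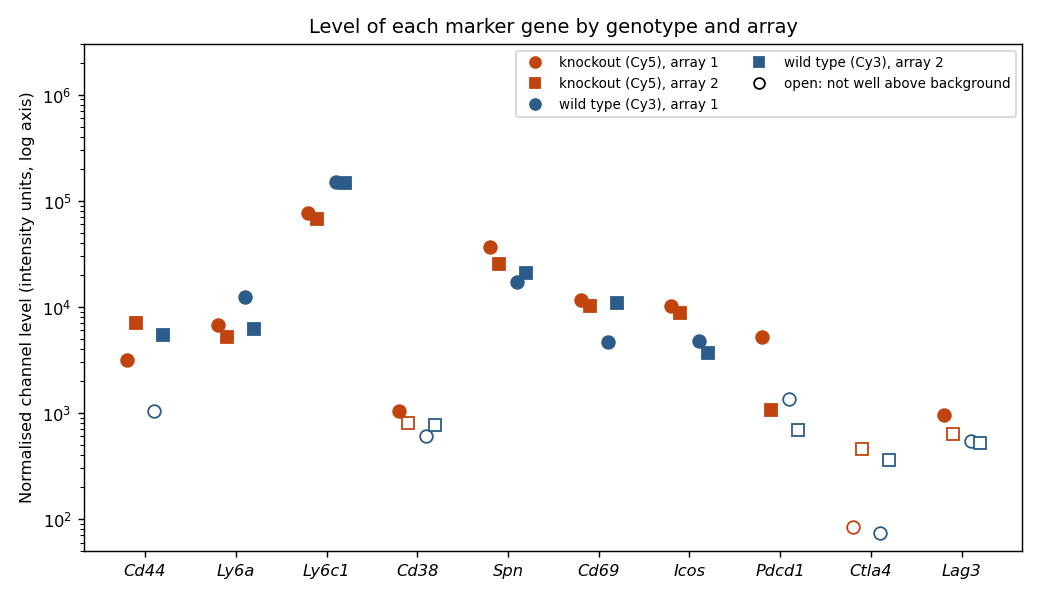
Normalised level (log axis) of the probe that stands for each gene, knockout in orange and wild type in blue, circles for array 1 and squares for array 2, with open symbols where the spot was not well above background. Among the genes tested, the knockout points lie above both wild-type points for Icos and Spn and below both for Ly6c1 (whose mean ratio was above 0 with median centring), and of the 3 dim genes Cd38 and Lag3 have 1 filled symbol each and Ctla4 none.

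Some markers of other cells rose in the same samples, where 1.24% of all genes rose and 0.248% fell. Of 6 NK cell markers tested, 3 rose in the knockout (Fcer1g, Klrb1c and Tyrobp) and none fell. Fcer1g was at least 20.6-fold higher (adjusted p = 5.17e-18, limma), with bounds of 8.85 on array 1 and 47.9 on array 2. The summed level of the 8 on the array, in which bright probes weigh most and dim ones are included, was 82665 and 163183 in the knockout, against 49978 and 60704 in wild type. Of 9 myeloid markers tested, 4 rose (Adgre1, C1qc, Csf1r and Lyz2, the last named after its values were seen) and none fell. On both arrays, 6 of the 9 were above 0 (30.9% of all genes) and 2 were below 0 (30.8% of all genes). The latter were Cd14 and Mpo, which did not pass. Lyz2 had log2 ratios of 4.03 and -0.38, so its mean rests on array 1. The summed level over all 12 myeloid genes was 22197 and 21181 in the knockout, against 6765 and 12802 in wild type, while Cd68, Itgam and Cd163 were not well above background in any channel. Of 2 gamma delta T cell markers tested, 1 rose, Cd163l1. Fcer1g, Adgre1, C1qc and Csf1r entered the test through the knockout channel alone, so they could only have been called higher. Klrb1c and Lyz2, with wild type well above background on array 2 only, were also kept through the knockout channel alone, which favoured a higher call. All these marker calls were lost with the scanner software's ratio, with arrays scaled to the same spread and without a filter, and Lyz2 passed under only 2 of 9 alternatives. No B cell, CD4 T cell, dendritic or red cell marker passed, of 7 tested in all. Cells of these kinds can express Cd44, Icos, Cd38, Cd69 and Spn, and their part in the values of the marker genes was not tested.

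For the memory markers Cd44, Ly6c1, Ly6a and Spn no direction passed the test. Cd44, the hyaluronan receptor and one of the markers of the sort, had levels of 3146 and 7032 in the knockout on arrays 1 and 2, against 1051 and 5466 in wild type, by its brightest probe (mm8 chromosome 2, 102613589 to 102613648). The wild-type value on array 1 was not well above background, and the levels of the genotypes overlapped, with array 2 brighter in both. The log2 ratio was 1.58 on array 1 and 0.36 on array 2, a mean of 0.97 ± 0.86 (SD, n = 2; adjusted p = 0.512, limma). The wild-type signal behind the array 1 ratio was 1.04 times the median of the negative control spots, so the size of that ratio and of the mean depends on how background is taken off.

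A second probe of Cd44, which the array carries 10 times (chromosome 2, 102612349 to 102612408), gave larger ratios. Its levels were 1839 and 3420 in the knockout on arrays 1 and 2, against 350 and 1465 in wild type, with no overlap. By their brightest probe, 21.2% of all genes had both knockout levels above both wild-type levels. On array 1 the 8 spots that were not outliers lay between 2.22 and 2.63, with a mean of 2.39 ± 0.13 (SD between spots), and on array 2 the 10 spots lay between 1.15 and 1.33, with a mean of 1.22 ± 0.06. The spots are technical repeats of 1 hybridisation, so their spread shows the error of a spot and not that of the samples. All 18 spots were above 0, and the 2 arrays differed by far more than the spots within an array. In wild type none of the 8 spots was well above background on array 1, while all 10 were on array 2. The mean over arrays was 1.81 ± 0.83 (SD, n = 2), and it did not pass among 11833 probes tested on their own (adjusted p = 0.120, limma). The third Cd44 probe (chromosome 2, 102635102 to 102635161) was not well above background in any channel.

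**Figure D3:**
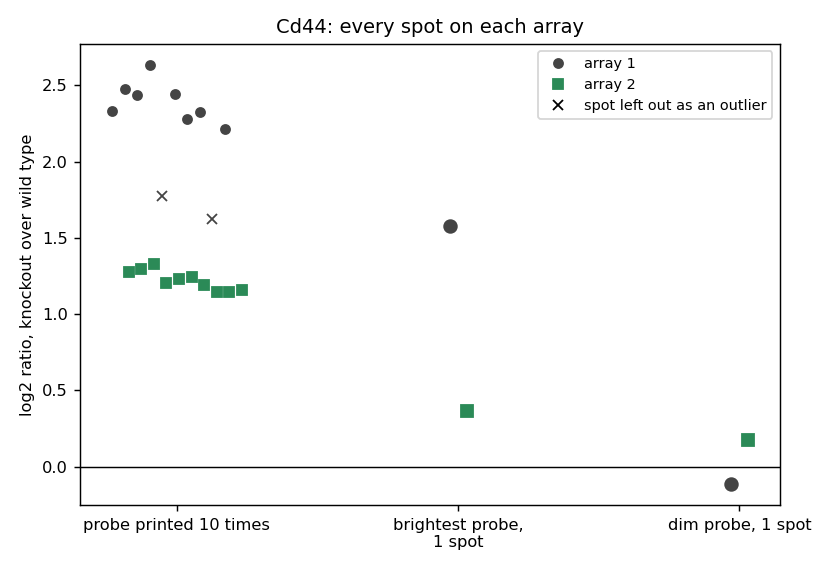
Log2 ratio of knockout over wild type at every Cd44 spot, by probe, with circles for array 1, squares for array 2 and crosses for the 2 spots left out as outliers on array 1. The repeated spots form a tight band on each array, 1.15 to 1.33 on array 2 and 2.22 to 2.63 on array 1, and the single-spot probes lie lower.

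Both Ly-6 antigens had mean log2 ratios below 0 that did not pass and that lay above 0 with median centring. Ly6c1, which encodes Ly-6C, a small membrane-anchored protein that rises on memory CD8+ T cells, had levels of 77397 and 66984 in the knockout, against 151405 and 148278 in wild type, by its brighter probe (chromosome 15, 74935462 to 74935520). All 4 values were well above background and no spot of any marker gene was saturated. Both knockout levels lay below both wild-type levels, as for 20.8% of all genes, and the replicates of a genotype lay closer to each other than to the other genotype. The log2 ratio was -0.97 on array 1 and -1.15 on array 2, a mean of -1.06 ± 0.13 (SD, n = 2; adjusted p = 0.427, limma), or 2.08-fold lower, and 1.18% of all genes had a lower mean. On the scale centred on the median its ratios were 0.62 on array 1 and -0.41 on array 2. Their mean was 0.10, where the typical gene stood at 0.68. Before normalisation the scanner signals were 146811 and 130798 in the knockout, against 67490 and 94466 in wild type. The direction on array 1 thus depended on the normalisation.

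The other Ly6c probe (chromosome 15, 74872537 to 74872596) had levels of 5410 and 6084 in the knockout, against 12209 and 14508 in wild type, and log2 ratios of -1.17 and -1.25. The probes thus gave values 0.21 apart on array 1 and 0.11 apart on array 2. On mm8 they lie 62.9 kb from each other, while RefSeq gives Ly6c1 a length of 4903 bases on GRCm38.p6 and lists the near-identical Ly6c2 as a separate gene. The accession of this second probe names Ly6c1, that of the brighter one is an Ly-6C mRNA named here through an older symbol, and no probe is named for Ly6c2. At these positions the probes cannot both lie in a gene of that length. The brighter probe, which stands for Ly6c1 in the test, may therefore lie outside Ly6c1. Which of Ly6c1 and Ly6c2 each probe reads was not tested, so the genes cannot be told apart in these values.

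Ly6a encodes Ly-6A, or Sca-1, which is found on blood stem cells and on activated and memory T cells. It had levels of 6705 and 5187 in the knockout, against 12483 and 6124 in wild type (1 probe, chromosome 15, 74822378 to 74822437). The genotypes overlapped, since the higher knockout value was above the lower wild-type one. The log2 ratio was -0.90 on array 1 and -0.24 on array 2, a mean of -0.57 ± 0.46 (SD, n = 2; adjusted p = 0.853, limma), and it became 0.31 with median centring. Of 8 other Ly6 family genes, 2 were tested and both were above 0 on both arrays without passing, Ly6d at 0.96 and 0.21 and Ly6e at 0.14 and 0.76.

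Spn encodes CD43, the heavily glycosylated mucin of T cells, of which some glycoforms mark activated cells. Its brightest probe (chromosome 7, 126924947 to 126925006) had levels of 36478 and 25173 in the knockout, against 17101 and 20657 in wild type. Both knockout levels exceeded both wild-type levels, as for 21.2% of all genes. The log2 ratio was 1.09 on array 1 and 0.29 on array 2, a mean of 0.69 ± 0.57 (SD, n = 2; adjusted p = 0.771, limma). A second probe (chromosome 7, 126925808 to 126925867), well above background in all channels, had levels of 3766 and 6808 in the knockout, against 7265 and 6572 in wild type. Its log2 ratios of -0.95 and 0.05 differed from those of the first by 2.04 on array 1 and 0.23 on array 2, so the direction of Spn on array 1 depended on the probe. The average of both probes was 0.12, and the third probe was not well above background in any channel.

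Cd38, an ectoenzyme that consumes NAD and a marker of activated lymphocytes, was not tested. By its brighter probe (chromosome 5, 44199418 to 44199477) it had levels of 1051 and 807 in the knockout, against 606 and 774 in wild type, and the first of these alone was well above background. No fold is given, since on array 2 neither genotype was well above background. The second Cd38 probe was dim in all channels.

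**Figure D4:**
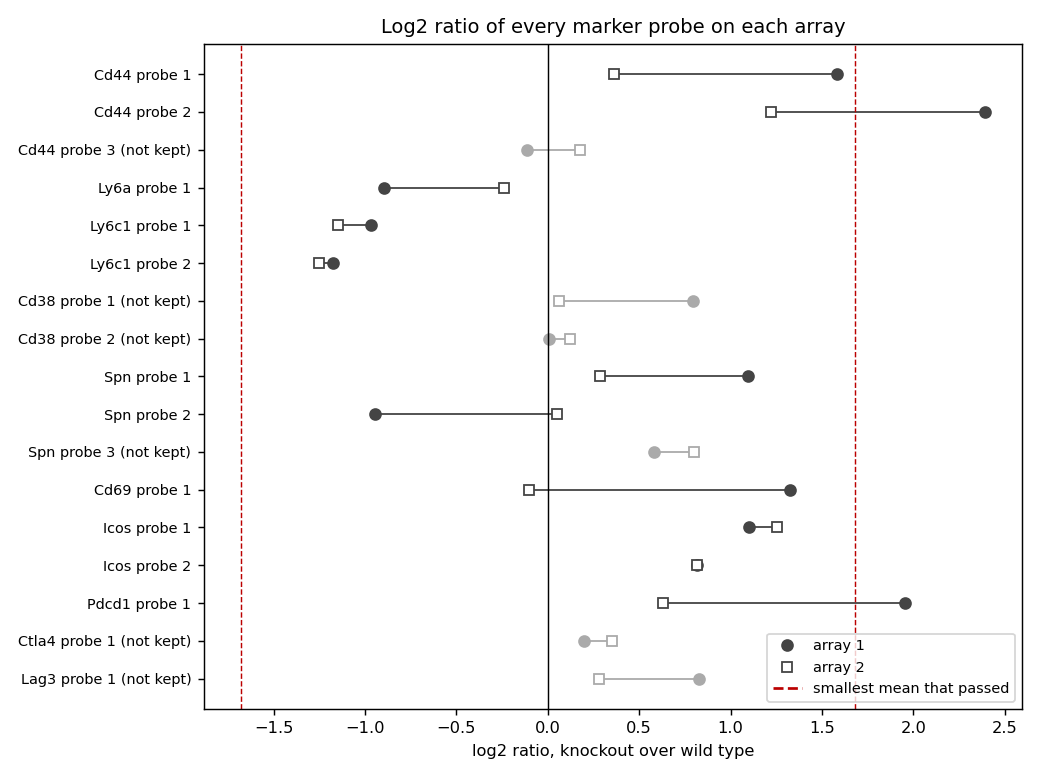
Log2 ratio of knockout over wild type of each of the 17 probes on array 1 (filled circles) and array 2 (open squares), in grey where the probe was too dim to be tested, with dashed lines at the smallest mean that passed (1.68 in size). The Icos and Ly6c1 probes have short lines, and the first and second Spn probes lie on opposite sides of 0 on array 1.

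Among the genes induced on activation, Icos gave like ratios on both arrays. It encodes a costimulatory receptor of the CD28 family. Its brighter probe (chromosome 1, 60944773 to 60944832) had levels of 10263 and 8739 in the knockout, against 4789 and 3657 in wild type, all well above background. Both knockout levels were above both wild-type levels, as for 21.2% of all genes. The log2 ratio was 1.10 on array 1 and 1.26 on array 2, a mean of 1.18 ± 0.11 (SD, n = 2), or 2.26-fold higher, without passing (adjusted p = 0.325, limma). By the brightest probe of each gene, Icos alone among the marker genes was over 2-fold higher on both arrays, as were 1.12% of all genes. The second Cd44 probe, at log2 ratios of 2.39 and 1.22, was over 2-fold higher on both arrays as well. A higher mean than that of Icos was found for 4.67% of all genes. The dimmer probe (chromosome 1, 60942805 to 60942864) had levels of 1830 and 1896 in the knockout, against 1038 and 1075 in wild type, and a ratio of 0.82 on both arrays; its wild-type value on array 1 was not well above background. The mean of Icos stayed between 1.00 and 2.05 over 10 other ways of processing, and the lowest adjusted p was 0.102 (limma).

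Pdcd1 encodes the inhibitory receptor PD-1, of the same family. It had levels of 5211 and 1063 in the knockout, against 1346 and 688 in wild type (1 probe, chromosome 1, 95868893 to 95868952). In wild type neither array had it well above background, and the knockout value on array 2 lay below the wild-type value on array 1. The knockout was at least 2.30-fold higher (adjusted p = 0.226, limma), a bound that was 3.87 on array 1 and 1.36 on array 2, with log2 ratios of 1.95 on array 1 and 0.63 on array 2. Its scanner signal before normalisation was 8.24 and 1.40 times the median of the negative control spots in the knockout, against 1.12 and 1.07 times in wild type, so on array 2 it lay near the unspecific signal. With the background taken from the negative controls the mean log2 ratio was 2.59 in place of 1.29 (adjusted p = 0.0818, limma), and with the scanner software's own ratio it was 3.89 on array 1 and 2.31 on array 2. The mean of the brightest Cd44 probe was 1.86 and 2.87 under the same settings, in place of 0.97, with 5.26 on array 1 alone by the scanner software's ratio.

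Cd69, the early activation antigen that holds back lymphocyte exit from tissues, differed between arrays. It had levels of 11586 and 10091 in the knockout, against 4625 and 10835 in wild type (1 probe, chromosome 6, 129233372 to 129233431), all well above background. The wild-type value on array 1 stood apart from the other values. The log2 ratio was 1.32 on array 1 and -0.10 on array 2, a mean of 0.61 ± 1.01 (SD, n = 2; adjusted p = 0.827, limma), so the mean rests on array 1.

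Lag3 and Ctla4, which encode inhibitory receptors, were too dim to be tested. Lag3, which binds MHC class II, had levels of 963 and 627 in the knockout, against 543 and 517 in wild type (1 probe, chromosome 6, 124870171 to 124870467). The first of these alone was well above background, and no fold is given because the bound was under 1. Ctla4, which competes with CD28 for CD80 and CD86, had levels of 84 and 459 in the knockout, against 73 and 361 in wild type (1 probe, chromosome 1, 60859210 to 60859269). It was not well above background in either genotype on either array, so no difference in Ctla4 was detectable.

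Other genes of T cell activation gave 2 calls. Of 32 further surface genes of activation and memory, 24 were tested, with a median log2 ratio of 0.27 against 0.04 over all genes. That median includes genes kept through the knockout channel alone, among them Cd244a, Tnfrsf9, Cd160 and Cd28, which favoured ratios above 0. Where 1.24% of all genes rose and 0.248% fell, 2 of these 24 rose in the knockout and none fell. Neither was well above background in wild type on either array, so both entered the test through the knockout channel alone and could only have been called higher. Cd244a, the receptor 2B4 of NK and memory CD8+ T cells, was at least 6.45-fold higher (adjusted p = 6.91e-10, limma), with bounds of 3.43 on array 1 and 12.1 on array 2. Tnfrsf9, the costimulator 4-1BB, was at least 2.61-fold higher (adjusted p = 5.27e-05, limma), with bounds of 3.75 and 1.81. Both calls were lost with the scanner software's ratio, with arrays scaled to the same spread and without a filter, and that of Tnfrsf9 also without background correction (adjusted p = 0.0695, limma). Cd160, a receptor of cytotoxic lymphocytes, was at least 2.09-fold higher without passing (adjusted p = 0.127). Il2ra, which encodes CD25, the other protein of the gate, was not well above background in any channel.

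In the CD28 family, 4 of 5 genes were tested and none passed. Above 0 on both arrays were Cd28, Icos and Pdcd1, as were 30.9% of all genes. Cd28 and Pdcd1 were kept through the knockout channel alone, which favoured ratios above 0. Cd28 itself was at 2.16 and 0.68, at least 1.76-fold higher in the knockout (adjusted p = 0.153, limma). Of 21 ligands and binding partners of the markers, 14 were tested and none passed. Their median log2 ratio was 0.29, against 0.04 over all genes. At an unadjusted p under 0.05 (limma) there were 2, where 9.75% of all genes had one. Icosl, the ligand of ICOS, was at 1.41 and 1.25, with a wild-type value well above background on array 2 only. Msn, which encodes moesin and links CD44 and CD43 to actin, was at 1.61 and 0.35. Has1, a hyaluronan synthase, was at -0.49 and -0.62. Icosl and Msn were kept through the knockout channel alone, which favoured ratios above 0. Has1 was kept through the wild-type channel alone, which favoured ratios below 0.

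Across ways of processing, 66 of 68 recomputed means of the 7 genes kept their sign, and none passed. Dropping the filter, requiring both channels and testing every probe reused the same ratios of the same probes, so those means could not change sign. Averaging the kept probes likewise reused the same ratios for Ly6a, Cd69 and Pdcd1. The count leaves out the second Spn probe, with a mean of -0.45. It also leaves out each array alone, where Cd69 was at -0.10 on array 2.

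**Figure D5:**
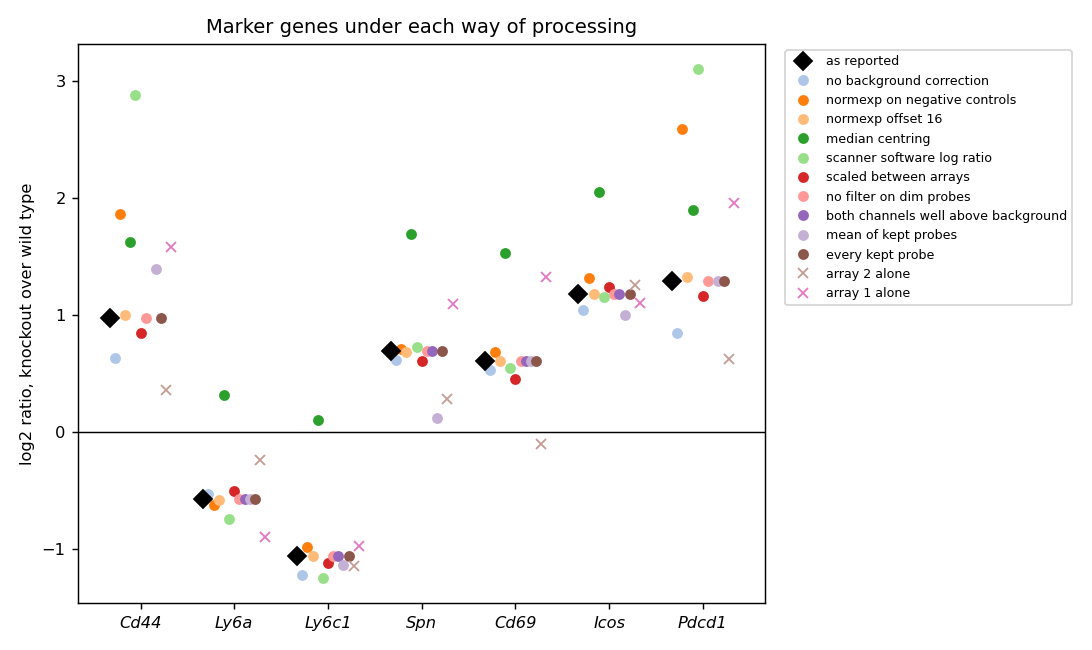
Mean log2 ratio of knockout over wild type of each tested marker gene as reported (black diamonds) and under each other way of processing (coloured circles), with each array alone as crosses. Ly6a and Ly6c1 cross 0 with median centring only, and Pdcd1 and Cd44 spread most, with the highest values from the scanner software's ratio.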

How the data were processed

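Scans were read with Feature Extraction 9.5.3.1, a version taken from the submitters' processing notes. Each deposited scanner file lists linear intensity values per spot, the mean signal and the median local background, not normalised, per the file headers. They also give log10 ratios of Cy5 over Cy3 as the software corrected them, per the file headers, and the deposited value table holds the same log10 ratios to within 0.005, with column medians of 0. Well-above-background and outlier marks are other columns of the deposited files.

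Intensities were corrected with normexp (offset 50) and log2 ratios normalised by loess within arrays (limma 3.58.1, R 4.3.3), without control and outlier spots. Spots of a probe were averaged, and probes bright in the same channel on both arrays (well above background) were kept, and the brightest stood for its gene. The mean over arrays was tested two-sided (lmFit, eBayes) and adjusted by Benjamini-Hochberg over 9273 genes, after a trial on simulated data. Of 41174 probes, 24375 were named through RefSeq accessions, 6301 by a current and 2426 by an older symbol, and 8072 kept the file's name. Local background (medians of 35 to 51.5) lay far below the negative control spots (medians of 985 to 1865), and Cd44 and Pdcd1 ratios were larger with negative controls as background. Channel levels used loess and Aquantile normalisation. The arrays share a slide and a scan, so no batch could be fitted. The arrays are called biological replicates. The test gave every gene the same standard error, 0.50, so a p-value depends on the mean of a gene and not on its own spread between these 2.

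All probes of the marker genes were described. From each other list up to 4 passing genes (cell type lists 3) with the largest mean were named; where fewer than 3 passed, places up to 3 went to genes of like sign on both arrays, by the smaller ratio. The marker genes and the lists were chosen with earlier results of these data known. Alternatives changed background correction, normalisation, filter, probe choice and arrays used.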

Additional observations from a re-analysis of the deposited data

How the results depend on the processing

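No marker gene passed under any of the 10 alternatives, including the 3 dim ones tested without a filter; the adjusted p-values ranged from 0.0783 (Ly6c1, no background correction) to 0.964 (Spn, mean of probes). Median centring turned Ly6a to 0.31 and Ly6c1 to 0.10, on a scale where the median of all genes was 0.65 higher (1.06 on array 1 and 0.19 on array 2); the cause was not tested. Among all genes, 138 passed as reported (115 higher, 23 lower); 35 passed with no background correction, 58 with negative controls as background, 64 with median centring (63 higher, 1 lower), 39 with both channels required above background (25 higher, 14 lower) and 31 with every probe tested on its own (28 higher, 3 lower). None passed with the scanner software's ratio, with arrays scaled to the same spread, or without a filter, where 574, 902 and 2478 had an unadjusted p under 0.05 (limma); the cause was not tested, and dropping the filter tests 27595 genes. With 1 array there is no test: 73 genes on array 2 alone and 915 on array 1 alone were past the smallest ratio that passed (1.68), and among the marker genes 0 and 1 were (Pdcd1 on array 1). Cd69 was at -0.10 on array 2 alone and 1.32 on array 1 alone. No paired analysis was possible because the arrays are 1 group of ratios, each already pairing a knockout with a wild-type sample. Signal near the negative controls limits Pdcd1, Cd38, Lag3 and Ctla4, and Cd44 in wild type on array 1.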
